A study of Mus musculus with 40 samples.

Results

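The genes described here are 10 genes of renal phosphate and calcium handling, Slc34a1, Slc34a2, Slc34a3, Slc20a1, Slc20a2, Kl, Vdr, Trpv5, Calb1 and Slc8a1. They were chosen by name from the 55382 genes of the kidney count table, and each of the 10 names matched 1 gene. All 10 were among the 15943 genes that passed the expression filter and were tested. The study asked whether the epidermal growth factor receptor (EGFR) of endothelial cells shapes the response of aorta and kidney to a high fat diet. RNA of 20 mouse kidneys was sequenced, with 5 libraries in each of 4 groups, and 20 aortas of the same design were sequenced beside them. The labels do not state that the libraries of a group came from separate animals, while the study's methods count animals or vessels as n, so p-values measure the spread between these libraries.

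KO mice carried floxed Egfr alleles (EGFR flox/flox) together with the transgene B6.Cg-Tg(Tek-cre)1Ywa/J, whose Cre recombinase is driven by the Tie2 promoter. WT mice carried the same Cre without LoxP sites, so all 4 groups expressed Cre. The growth protocol in the labels speaks of an inducible knockout in vascular smooth muscle cells while naming this Tie2-driven line, whereas the source names of the samples and the study's methods give endothelial cells, which is the reading used here. The floxed line is given as C57BL/6 and the Cre line as C57BL/6J, a substrain with a mutation in Nnt that the study names as a limit of its HFD results, and the substrain of the floxed line is not given in the sources used here. HFD supplied 60% of energy as fat, and SFD, called SD in the labels, supplied 10%. Mice of the HFD groups received a 1:1 mixture of both diets for 7 days at about 5 weeks of age and then HFD alone for 18 weeks from 6 weeks of age. SFD was fed for the same 18 weeks, and the sex of the mice and the hour of tissue collection are not given in the sources used here. The Tie2 promoter is also active in haematopoietic cells, and the deletion covers exon 1 of Egfr. Other kidney cells therefore keep an intact gene, and whole kidney RNA cannot show the loss in endothelial cells directly.

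Most filtered phosphate is recovered in the proximal tubule by sodium-phosphate cotransporters of the brush border, chiefly Slc34a1 and Slc34a3, which parathyroid hormone and fibroblast growth factor 23 hold down, the latter through its coreceptor Klotho (Kl). Calcium is fine-tuned in the distal convoluted and connecting tubules, where it enters through the channel Trpv5, is carried across the cell by the calcium-binding protein calbindin-D28k (Calb1) and leaves through the exchanger Slc8a1 and calcium pumps. Active vitamin D acts on both systems through its receptor Vdr and induces Cyp24a1, the enzyme that degrades it.

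Between 19643033 and 48833447 counts fell on genes per kidney library, with a median of 24182781. Values are given as FPM, edgeR's CPM unit on the TMM-normalized library size, and, where genes are compared with each other, as FPKM, which divides FPM by the length of the gene's exons in kilobases. Gene coordinates are those of GENCODE M21 on GRCm38. The KO HFD kidney a1 and the WT HFD kidney a12 were near-identical. Their counts differed by less than sampling noise, with a median chi-square over genes of 0.0246, where noise alone gives 0.455 and the next closest pair of kidneys had 1.76. They were also the deepest kidney libraries, a1 with 48788716 counts and a12 with 48833447. The next deepest, a16 of WT SFD, had 31369285. The origin of the likeness and of the depth was not tested. The kidneys a1 and a12 stand in different groups and cannot be averaged, so many results, though not all, are given with both and without both. The libraries a17 of WT SFD and a8 and a9 of KO SFD stood apart in immediate-early genes, and their values are given beside Slc20a1. The libraries a16 and a18 of WT SFD stood apart by low endothelial and podocyte markers, and a6 of KO SFD by low endothelial markers. Their values are given beside Slc8a1.

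Egfr (ENSMUSG00000020122, chromosome 11, 16752203 to 16918158) was examined first as a check of the labels. It had 54.2, 64.5, 49.3, 54.3 and 59.5 FPM in the WT SFD kidneys a16 to a20, and 49.1, 55.3, 55.6, 47.8 and 57.6 FPM in the KO SFD kidneys a6 to a10. Under HFD it had 48.5, 38.4, 45.6, 48.4 and 21.7 FPM in the WT kidneys a11 to a15, and 38.5, 34.6, 60.5, 37.4 and 40.4 FPM in the KO kidneys a1 to a5. KO and WT kidneys overlapped under both diets, so whole kidney Egfr mRNA neither separated the genotypes nor went against the labels. The log2 fold change of KO against WT was -0.09 (standard error 0.17, adjusted p = 1.00) under SFD and 0.06 (standard error 0.17, adjusted p = 0.947) under HFD, by edgeR's quasi-likelihood test with Benjamini-Hochberg adjustment. Averaged over genotypes, Egfr fell by 0.40 on the log2 scale under HFD (standard error 0.12, adjusted p = 0.0292 in the same edgeR test). Fits without single kidneys were not run for Egfr.

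Per exon length, Slc34a1 exceeded the other 9 genes by far, with 1157 ± 98.4 FPKM (SD, n = 20 kidneys). Calb1 with 58.8 ± 10.2 FPKM and Kl with 57.7 ± 9.04 FPKM followed and did not differ beyond their spread, and Vdr lay just more than 1 SD below both with 48.5 ± 7.92 FPKM. This order pools the 4 groups and did not hold in each. Calb1 and Kl had means of 53.9 and 66.3 FPKM in WT SFD, 62.4 and 53.3 in WT HFD, 53.1 and 59.3 in KO SFD, and 65.6 and 51.7 in KO HFD. In the same order of groups, Vdr had 49.2, 53.0, 43.8 and 48.1 FPKM. Slc34a3 had 27.6 ± 8.85 FPKM. Slc20a1 with 10.4 ± 9.36 FPKM and Slc20a2 with 10.2 ± 0.755 FPKM did not differ beyond their spread, nor did Slc20a1 and Slc8a1, which had 6.37 ± 2.08 FPKM. The mean and SD of Slc20a1 rested on a17, a8 and a9, with 40.9, 24.5 and 27.5 FPKM, and in the other 17 kidneys it had 4.72 to 8.58 FPKM, below the lowest Slc20a2 level of 8.94 FPKM. At the low end stood Trpv5 with 3.16 ± 0.835 FPKM and Slc34a2, the cotransporter best known from gut and lung, with 0.717 ± 0.185 FPKM. The coefficient of variation over the 20 kidneys was 7.37% for Slc20a2 and 8.51% for Slc34a1, against 32.0% for Slc34a3, 32.6% for Slc8a1 and 90.3% for Slc20a1.

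**Figure D1:**
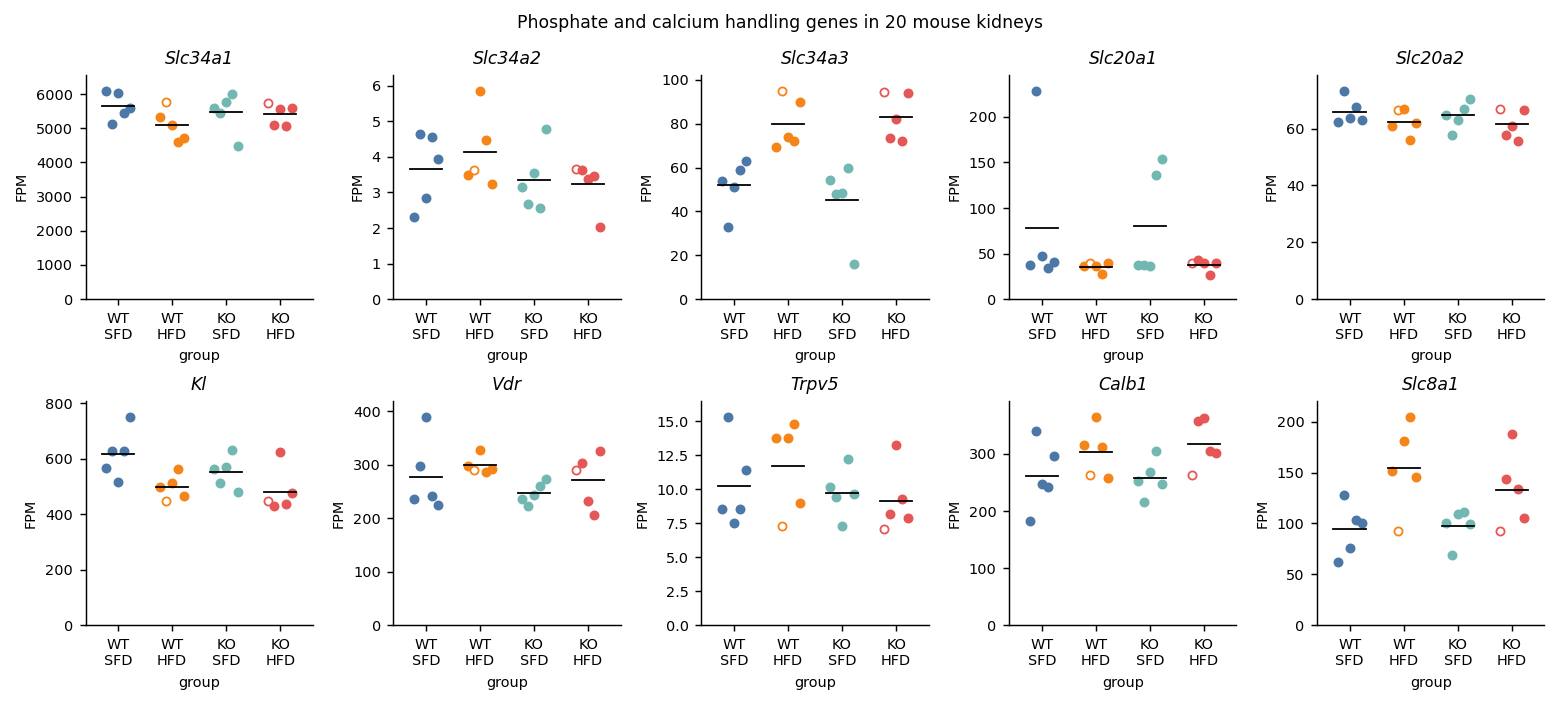
Level of each of the 10 genes in 20 mouse kidneys, in FPM on the vertical axis, by genotype and diet. Each point is 1 kidney, horizontal lines are group means (n = 5), and open points mark the near-identical kidneys a1 and a12. Slc34a3 lies higher under HFD than under SFD in both genotypes, and Slc20a1 is high in 3 SFD kidneys, at 228, 137 and 154 FPM.

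The effect of diet was tested in each genotype and as the mean of both genotypes, all in a single edgeR fit of the 20 kidneys, and a gene counted as called at an adjusted p under 0.05. In WT kidneys, 0 of the 10 genes were called by edgeR's quasi-likelihood test, while 4 had an unadjusted p under 0.05, as 3090 of all 15943 genes had, and the DESeq2 Wald test called 1. Over all genes tested, 6.71% were called in that comparison, 3.03% as higher and 3.68% as lower, and 2.18% also passed the study's further thresholds. These are a change of more than 1.5-fold and more than 5 FPM, the latter read here as a mean above 5 FPM in either group. In KO kidneys 1 of the 10 was called, Slc34a3, which was higher and also passed those thresholds. The background there was 6.34% of all genes, 3.16% higher and 3.18% lower, with 2.16% past the further thresholds. Averaged over genotypes, 3 of the 10 were called, against 16.4% of all genes. Slc34a3 and Slc8a1 were higher, where the background was 7.70%, Kl was lower, where it was 8.70%, and Slc34a3 alone passed the further thresholds, as 2.92% of all genes did. The median log2 fold change of the 10 genes was 0.14 in WT, -0.031 in KO and 0.056 averaged, beside medians over all genes tested of -0.00027, -0.00060 and -0.0012. Both near-identical kidneys belong to HFD groups. Without them the genes called of the 10 numbered 1 in WT, 0 in KO and 3 averaged, with Calb1 as higher in place of Kl. Over all genes the calls were then 1091, 880 and 2361, against 1069, 1011 and 2615 with all kidneys. Without a6, a16 and a18, an alternative chosen after seeing the data, the genes called of the 10 numbered 0 in WT, 0 in KO and 3 averaged in edgeR, with Slc20a1 as lower in place of Slc8a1. Over all genes the calls were then 646, 935 and 2296.

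**Figure D2:**
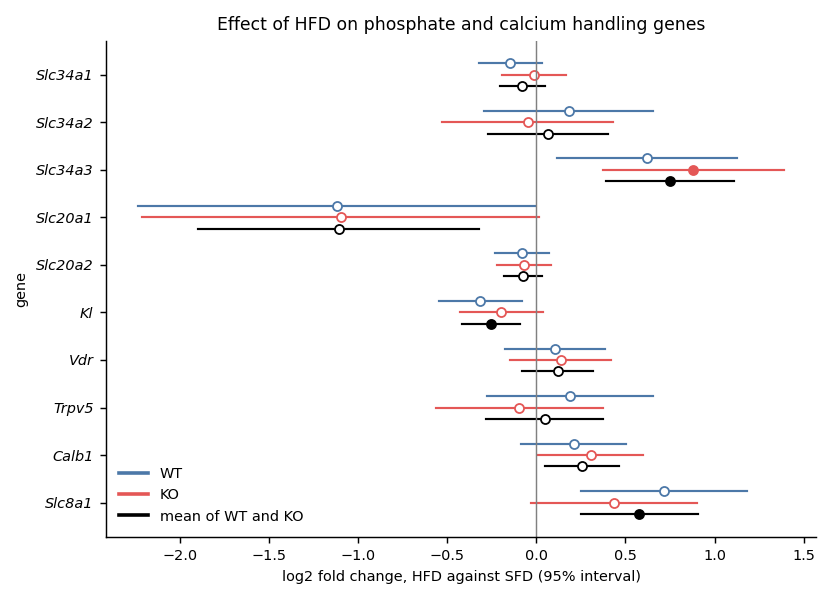
Log2 fold change of HFD against SFD for each of the 10 genes, with its 95% interval, in WT kidneys, in KO kidneys and as the mean of both, from edgeR's quasi-likelihood fit. Filled points have an adjusted p under 0.05 over all genes tested. Slc34a3 is filled for KO and for the mean of both genotypes, and Kl and Slc8a1 for the mean alone.

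Slc34a1 (NaPi-IIa, ENSMUSG00000021490, chromosome 13, 55398187 to 55415592, plus strand) and Slc34a3 (NaPi-IIc, ENSMUSG00000006469, chromosome 2, 25228898 to 25234364, minus strand) are the sodium-phosphate cotransporters of the proximal brush border. Their promoter sequences are shown because the levels of these genes parted under HFD. The sequences are the bases before the start site in RefSeq on GRCm38.p6, 5′ to 3′ on the gene's strand, without bases that lie in annotated exons. For Slc34a1 the window is chr13:55399398-55399647 on the plus strand, within an intron of longer annotated transcripts, and for Slc34a3 it is chr2:25234365-25234484 on the minus strand, directly before the annotated gene.
Slc34a1: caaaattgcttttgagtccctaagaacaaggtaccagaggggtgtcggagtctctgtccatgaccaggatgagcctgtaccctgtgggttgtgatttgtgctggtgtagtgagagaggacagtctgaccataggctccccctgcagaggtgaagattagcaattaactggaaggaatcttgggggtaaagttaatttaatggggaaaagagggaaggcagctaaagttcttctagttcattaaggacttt
Slc34a3: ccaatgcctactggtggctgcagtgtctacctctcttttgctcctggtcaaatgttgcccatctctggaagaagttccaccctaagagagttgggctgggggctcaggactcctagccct
The motifs searched, on both strands, were the E-box CACGTG, the nuclear receptor half-site AGGTCA and the TATA box TATAAA, and capitals would mark a match. None of these letters stood in the printed stretches of either gene, and the bases of the Slc34a3 window that lie in exons, not printed, held 2 half-sites. Of 32851 promoter windows of the same full length, 6.02% held the E-box (1978 windows) and 12.4% the TATA box (4063), and the half-site stood in 4607 of the 32851.

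Slc34a3 had 54.0, 33.1, 51.3, 58.9 and 62.8 FPM in the WT SFD kidneys a16 to a20, and 69.5, 94.9, 74.0, 72.3 and 89.8 FPM in the WT HFD kidneys a11 to a15. In KO kidneys it had 48.1, 48.6, 59.7, 15.9 and 54.3 FPM under SFD (a6 to a10), and 94.6, 73.4, 82.1, 72.4 and 94.1 FPM under HFD (a1 to a5). All 5 HFD kidneys were higher than all 5 SFD kidneys in each genotype, a separation that 6.64% of all genes showed in WT and 7.81% in KO, in either direction. The lowest value of the 20 was that of a9. Group means under SFD and HFD were 52.0 ± 11.5 and 80.1 ± 11.4 FPM in WT, and 45.3 ± 17.1 and 83.3 ± 10.7 FPM in KO (SD, n = 5 each). The log2 fold change was 0.62 in WT (standard error 0.24, adjusted p = 0.149) and 0.88 in KO (standard error 0.24, adjusted p = 0.0349), by edgeR's quasi-likelihood test with Benjamini-Hochberg adjustment. The effects in KO and WT differed by 0.26 (standard error 0.34, adjusted p = 1.00 in the edgeR interaction test), so a difference between genotypes was not shown. Single kidneys moved this interaction between 0.038, without a9, and 0.39, without a17, and with the immediate-early score it was 0.10. Averaged over genotypes, Slc34a3 rose by 0.75 on the log2 scale (standard error 0.17, adjusted p = 0.00462 in the same edgeR test). Without a1 and a12 the averaged value was 0.69 (adjusted p = 0.0170) and that in KO was 0.83, where the call was lost (adjusted p = 0.0819, edgeR). The call in KO was also lost without a1 alone (0.83, adjusted p = 0.0771), a3 (0.90, adjusted p = 0.0556), a5 (0.83, adjusted p = 0.0737), a6 (0.90, adjusted p = 0.0601) or a7 (0.91, adjusted p = 0.0589, edgeR). It was lost as well without a filter (0.89, adjusted p = 0.0956), with the immediate-early score as a covariate (0.69, adjusted p = 0.0901), with only the 2 groups in the fit (0.89, adjusted p = 0.121) and without a6, a16 and a18 (0.91, adjusted p = 0.0881, edgeR), where Slc34a3 averaged 0.78 (adjusted p = 0.0258, edgeR). Without a8, a9 and a17, Slc34a3 passed in WT (0.50, adjusted p = 0.0110), in KO (0.74, adjusted p = 0.00208) and averaged (0.62, adjusted p = 7.6e-05, edgeR). These effects were smaller than with all kidneys. That set was chosen after seeing the data, and leaving it out also removes a17 and a9, the lowest Slc34a3 values of their SFD groups.

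Slc34a1 ranged from 5136 to 6086 FPM in WT SFD, 4613 to 5757 in WT HFD, 4481 to 5999.8 in KO SFD and 5076 to 5738 FPM in KO HFD. The groups overlapped throughout. Its log2 fold change under HFD was -0.15 in WT (standard error 0.09, adjusted p = 0.372) and -0.013 in KO (standard error 0.09, adjusted p = 0.957, edgeR's quasi-likelihood test with Benjamini-Hochberg adjustment). Without a6, a16 and a18 the value in WT was -0.056 (adjusted p = 0.834, edgeR). Without a1 and a12 the values were -0.19 in WT and -0.035 in KO (adjusted p = 0.208 and 0.885, edgeR). Slc34a2 (ENSMUSG00000029188, chromosome 5, 53038081 to 53071664) lay between 2.04 and 5.85 FPM in the 20 kidneys, with overlap of all groups and log2 fold changes of 0.18 in WT and -0.049 in KO (adjusted p = 0.719 and 0.937, edgeR). The sign of Slc34a2 turned in WT without a6, a16 and a18 (-0.063), and in KO without a8, a9 and a17 (0.057) and with the immediate-early score (0.095). Leaving out single kidneys moved its value in WT between 0.027, without a13, and 0.28, without a17. Without a1 and a12 the value of Slc34a2 was 0.23 in WT and -0.10 in KO (adjusted p = 0.626 and 0.885, edgeR).

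The ratio of both brush border cotransporters within a library does not depend on library scaling. The log2 ratio of Slc34a3 to Slc34a1 counts was -6.82, -7.28, -6.88, -6.53 and -6.47 in the WT SFD kidneys a16 to a20, and -6.27, -5.92, -6.11, -5.99 and -5.72 in the WT HFD kidneys a11 to a15. KO kidneys had ratios of -6.83, -6.89, -6.65, -8.14 and -6.69 under SFD (a6 to a10), and -5.92, -6.11, -6.09, -6.13 and -5.89 under HFD (a1 to a5). No SFD kidney reached the lowest HFD kidney of its genotype. Slc34a1 varied little, with a coefficient of variation of 8.51% against 32.0% for Slc34a3. The ratio thus largely restates the Slc34a3 levels of these kidneys and is not independent of that result. The share of other gene pairs with such a separation was not computed. The mean log2 ratio was -6.001 ± 0.20 in WT HFD against -6.79 ± 0.32 in WT SFD (SD, n = 5 each), a difference of 0.79 with an adjusted p = 0.00794 in an exact two-sided permutation test. This p was adjusted over the ratio tests of WT and KO alone, so it cannot be set beside p-values adjusted over all genes. KO kidneys had -6.03 ± 0.11 under HFD and -7.04 ± 0.62 under SFD (SD, n = 5 each), a difference of 1.01 with the same adjusted p = 0.00794, which is the smallest p the 252 exact permutations allow. Without a1 and a12 the differences were 0.77 in WT and 0.98 in KO, without a8, a9 and a17 they were 0.67 and 0.77, and without a6, a16 and a18 they were 0.76 and 1.06.

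**Figure D3:**
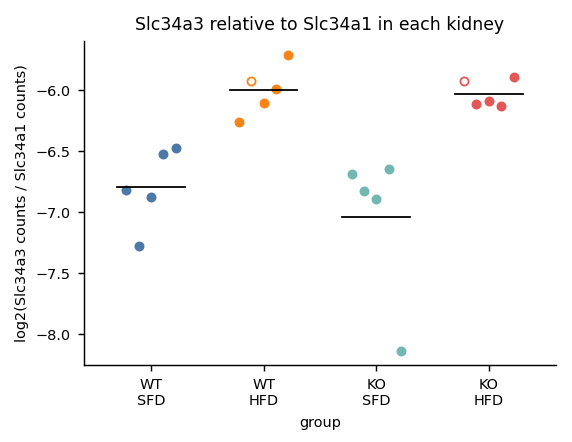
Log2 ratio of Slc34a3 counts to Slc34a1 counts in each of 20 kidneys, by genotype and diet. Each point is 1 kidney, lines are group means (n = 5), and open points mark a1 and a12. All HFD kidneys lie above all SFD kidneys of their genotype, and the kidney a9 of KO SFD lies lowest, at -8.14.

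Markers of the early and late proximal tubule were read beside Slc34a3, since both cotransporters belong to that segment. Of 4 markers of the early segment, Slc5a2 and Slc22a8 were higher under HFD in both genotypes, Slc22a6 was lower and Slc5a12 was not called. Of 4 markers of the late segment, Slc7a13, Atp11a and Cyp7b1 were lower in both genotypes and Slc5a1 was higher. Over all genes, edgeR called 6.71% in WT and 6.34% in KO. Summed over the list, the early markers gave 2323, 1985, 2534, 2099.8 and 2299.8 FPM in WT SFD (a16 to a20), 2498, 2605, 2369.8, 2292 and 2405 in WT HFD (a11 to a15), 2092, 2179, 2301, 1687 and 2242 in KO SFD (a6 to a10), and 2604, 2431, 2663, 2344 and 2590.0 in KO HFD (a1 to a5). The late markers summed, in the same order of kidneys, to 3263, 3389, 3385, 3366 and 3816 FPM under SFD and 2352, 1801, 2485, 2221 and 2446 under HFD in WT kidneys. In KO kidneys these sums were 3234, 3316, 2987, 3264 and 3663 under SFD and 1799, 2088, 2019, 1905 and 2225 under HFD. Slc22a6 was the most abundant early marker and Atp11a the most abundant late one by mean level, and none of these 8 markers was at 0 in any kidney. The late sums were thus lower in all HFD kidneys, and the early sums overlapped in WT and not in KO. The part of these markers in the Slc34a3 result was not tested, and in whole kidney RNA fewer cells of a type and less RNA per cell cannot be told apart. Over the 18 kidneys other than a1 and a12, the genes whose log2 FPM were most like that of Slc34a3 among 10420 genes were Slc5a2, the glucose cotransporter of the early proximal tubule (Pearson r = 0.955), Ugt2b34 (0.941) and Myrf (0.925), given as a description over kidneys that share diets. The kidney a9, lowest in Slc34a3, was also lowest in Slc5a2, with 156 FPM.

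Slc20a1 (PiT-1, ENSMUSG00000027397, chromosome 2, 129198764 to 129211616, plus strand) and Slc20a2 (PiT-2, ENSMUSG00000037656, chromosome 8, 22476788 to 22569612) are the widely expressed type III sodium-phosphate cotransporters. The window before the first RefSeq start of Slc20a1 is shown because this gene varied most of the 10 between kidneys. It spans chr2:129198523-129198763 on the plus strand of GRCm38.p6, directly before the annotated gene, and capitals mark matches to the E-box CACGTG and, overlapping the second of these, to the half-site AGGTCA.
Slc20a1: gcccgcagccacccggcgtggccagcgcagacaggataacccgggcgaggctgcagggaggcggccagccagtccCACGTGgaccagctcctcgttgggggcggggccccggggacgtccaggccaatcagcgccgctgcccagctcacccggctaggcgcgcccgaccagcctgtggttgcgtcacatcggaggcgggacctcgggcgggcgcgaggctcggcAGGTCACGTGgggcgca
The match is a description of these letters. The window of a second RefSeq start of Slc20a1, chr2:129206846-129207095, held 0 E-boxes and 1 half-site and is not printed. RefSeq windows were found for 8 of the 10 genes, and Slc20a2 and Calb1 had none.

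Slc20a1 had 37.9, 228, 47.9, 34.1 and 41.0 FPM in the WT SFD kidneys a16 to a20, and 36.3, 39.5, 35.9, 27.6 and 39.6 FPM in the WT HFD kidneys a11 to a15. In KO kidneys it had 37.2, 36.4, 137, 154 and 37.6 FPM under SFD (a6 to a10), and 39.3, 43.1, 39.8, 26.3 and 39.1 FPM under HFD (a1 to a5). The SFD kidneys a17, a8 and a9 stood far above the other 17, which lay between 26.3 and 47.9 FPM and overlapped between diets. Group means were 77.8 ± 84.3 FPM (SD, n = 5) in WT SFD and 35.8 ± 4.90 in WT HFD, and KO kidneys had 80.3 ± 59.5 FPM under SFD and 37.5 ± 6.48 under HFD. The log2 fold change under HFD was -1.12 in WT (standard error 0.53, adjusted p = 0.254), -1.10 in KO (standard error 0.53, adjusted p = 0.264) and -1.11 averaged (standard error 0.37, adjusted p = 0.0508), by edgeR's quasi-likelihood test with Benjamini-Hochberg adjustment. None of these passed the threshold, while the DESeq2 Wald test called the averaged effect (adjusted p = 0.0197). Without a8, a9 and a17, an alternative chosen after seeing the data, the log2 fold change of Slc20a1 was -0.17 in WT (adjusted p = 0.531) and 0.026 in KO (adjusted p = 0.962), and averaged it was -0.070 (adjusted p = 0.718, edgeR). Without a17 alone the value in WT was -0.17 (adjusted p = 0.857) and the averaged one -0.63 (adjusted p = 0.118), and without a9 alone the value in KO was -0.72 (adjusted p = 0.537, edgeR). Without a1 and a12 the averaged value was -1.14 (adjusted p = 0.0929, edgeR). Without a6, a16 and a18 it was called, at -1.37 (adjusted p = 0.0341, edgeR), with a8, a9 and a17 still in the fit. It also passed the threshold when any 1 of a6, a7, a10, a16, a19 and a20, SFD kidneys without high values, was left out, with values from -1.20 to -1.18 (adjusted p between 0.0369 and 0.0449, edgeR).

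The same 3 kidneys were high in immediate-early genes, which are transcribed within minutes of a stimulus. Summed over 6 such genes (Fos, Fosb, Egr1, Atf3, Junb and Ier2), a17 had 1320.2 FPM, a8 had 1471 FPM and a9 had 1383 FPM, and the other 17 kidneys had 29.3 to 85.7 FPM. Egr1 was the most abundant of the list in these 3 kidneys, with 748 FPM in a17, 839 in a8 and 608 in a9, and none of the 6 genes was at 0 in any kidney. Of the 6 genes, 0 were called under HFD in WT or in KO by edgeR's quasi-likelihood test, where 0 and 6 had an unadjusted p under 0.05 and the DESeq2 Wald test called 0 and 6. Averaged over genotypes, 5 were called as lower, where 8.70% of all genes were. Slc20a1 was thus high in exactly the 3 kidneys with high immediate-early sums. The part of these genes in the Slc20a1 result was not tested beyond the fits without those kidneys and those with the immediate-early score as a covariate. Slc20a2 lay between 55.5 and 73.1 FPM in all 20 kidneys, overlapped in all groups, and had log2 fold changes under HFD of -0.079 in WT and -0.069 in KO, the latter turning sign without a8, a9 and a17 (0.0027). Leaving out single kidneys moved the value of Slc20a2 between -0.103 and -0.036 in WT and between -0.108 and -0.026 in KO.

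**Figure D4:**
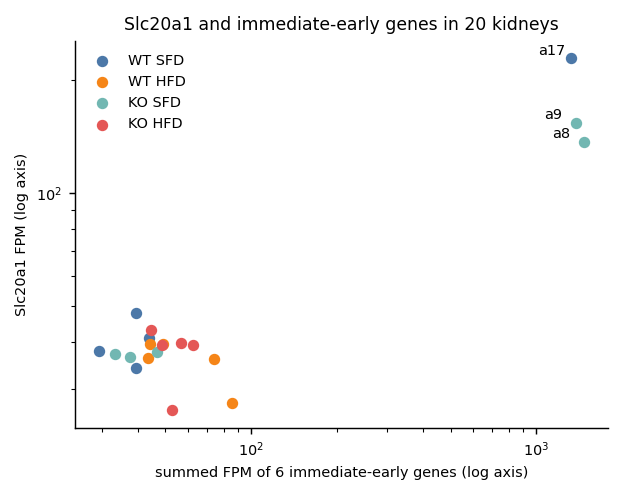
Slc20a1 level in FPM against the summed FPM of 6 immediate-early genes in 20 kidneys, both on log axes, coloured by group. Each point is 1 kidney. The 3 kidneys a17, a8 and a9, all under SFD, lie apart on both axes, with sums of 1320.2, 1471 and 1383 FPM.

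Part of the Slc20a2 gene overlaps Smim19 on the opposite strand, which had 16608 counts over the 20 kidneys beside 33316 for Slc20a2. Slc20a1 overlaps Gm4430 (993 counts beside 28929), Slc34a1 overlaps Pfn3 (0 counts) and Slc8a1 overlaps Gm11096 (3 counts beside 61307). The strand setting of the counting is not stated, so reads of such partners cannot be told apart where their exons overlap.

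Kl (ENSMUSG00000058488, chromosome 5, 150952607 to 150993817) encodes Klotho, the coreceptor through which fibroblast growth factor 23 acts on kidney tubules. It had 568, 629, 517, 629.6 and 749.5 FPM in the WT SFD kidneys a16 to a20, and 500.1, 447, 513, 563 and 465 FPM in the WT HFD kidneys a11 to a15. In KO kidneys it had 513, 572, 633, 483 and 563 FPM under SFD (a6 to a10), and 448, 429, 624, 437 and 476 FPM under HFD (a1 to a5). In each genotype 4 of 5 HFD kidneys lay below all SFD kidneys, and the exceptions, a14 in WT and a3 in KO, made the groups overlap. The log2 fold change was -0.31 in WT (standard error 0.11, adjusted p = 0.108) and -0.20 in KO (standard error 0.11, adjusted p = 0.354), by edgeR's quasi-likelihood test with Benjamini-Hochberg adjustment. Averaged over genotypes, Kl fell by 0.25 on the log2 scale (standard error 0.08, adjusted p = 0.0313 in the same edgeR test). The call was lost without a1 and a12 (-0.22, adjusted p = 0.0822), without a8, a9 and a17 (-0.24, adjusted p = 0.0769) and with the immediate-early score as a covariate (-0.24, adjusted p = 0.0579, edgeR). Leaving out single kidneys ended it in 8 of 20 cases, those of a1, a2, a4, a7, a8, a12, a15 and a20, with adjusted p between 0.0509 and 0.0630 in edgeR. The genes most like Kl over the 18 kidneys were Slc36a1 (Pearson r = 0.914), Ttll4 (0.913) and Gcnt1 (0.907), again as a description.

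Vdr (ENSMUSG00000022479, chromosome 15, 97854425 to 97910630), the nuclear receptor of active vitamin D, ranged from 225 to 389 FPM in WT SFD, 287 to 327 in WT HFD, 222 to 274 in KO SFD and 207 to 325 FPM in KO HFD. The groups overlapped in both genotypes. Its log2 fold change under HFD was 0.11 in WT (standard error 0.14, adjusted p = 0.724) and 0.14 in KO (standard error 0.14, adjusted p = 0.632), by edgeR's quasi-likelihood test with Benjamini-Hochberg adjustment. Leaving out single kidneys moved the value in WT between 0.040, without a20, and 0.27, without a18, the kidney highest in Vdr, and that in KO between 0.064, without a5, and 0.23, without a4.

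Slc8a1 (NCX1, ENSMUSG00000054640, chromosome 17, 81373105 to 81738377) is the sodium-calcium exchanger of the basolateral membrane. It had 62.7, 128, 76.4, 104 and 100.3 FPM in the WT SFD kidneys a16 to a20, and 152, 92.4, 181, 204 and 145 FPM in the WT HFD kidneys a11 to a15. In KO kidneys it had 69.3, 109, 111, 99.2 and 100.1 FPM under SFD (a6 to a10), and 92.3, 143, 188, 133 and 105 FPM under HFD (a1 to a5). In WT, 4 of 5 HFD kidneys were higher than all SFD kidneys, the exception being a12, and in KO 3 of 5 were, the exceptions being a1 and a5. The log2 fold change was 0.72 in WT (standard error 0.22, adjusted p = 0.0596) and 0.44 in KO (standard error 0.22, adjusted p = 0.289), by edgeR's quasi-likelihood test with Benjamini-Hochberg adjustment. Leaving out single kidneys moved the value in KO between 0.29 and 0.54. Averaged over genotypes, Slc8a1 rose by 0.58 on the log2 scale (standard error 0.16, adjusted p = 0.0154 in the same edgeR test). The interaction was -0.28 (standard error 0.31, adjusted p = 1.00, edgeR), and it moved between -0.43, without a3, and -0.16, without a14, when single kidneys were left out. Without a6, a16 and a18 it was -0.16. Without a1 and a12 the averaged value was 0.70 (adjusted p = 0.00158), and Slc8a1 was then also called in WT (0.86, adjusted p = 0.0108, edgeR) and not in KO (0.54, adjusted p = 0.125, edgeR). Leaving out a12 alone (0.86, adjusted p = 0.0164) or a17 alone (0.85, adjusted p = 0.0289) also brought the call in WT, as did leaving out a8, a9 and a17 (0.85, adjusted p = 0.0395, edgeR). Slc8a1 was called in WT as well with the clock score (0.74, adjusted p = 0.0254) or the immediate-early score (0.77, adjusted p = 0.0276, edgeR) as a covariate and by the DESeq2 Wald test (0.71, adjusted p = 0.0164). The averaged call was lost without a6, a16 and a18 (0.42, adjusted p = 0.0727, edgeR), the SFD kidneys with the lowest Slc8a1 values. The genes most like Slc8a1 over the 18 kidneys were Me2 (Pearson r = 0.921), Wipf1 (0.901) and Peg3 (0.899).

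Trpv5 (ENSMUSG00000036899, chromosome 6, 41652173 to 41680769), the apical calcium channel, lay between 7.12 and 15.3 FPM in the 20 kidneys, with overlap of all groups. Its log2 fold change under HFD was 0.19 in WT and -0.096 in KO (standard error 0.22 each), with adjusted p = 0.695 and 0.861 in edgeR's quasi-likelihood test with Benjamini-Hochberg adjustment. Single kidneys moved the value in WT between 0.096, without a14, and 0.38, without a17, and without a6, a16 and a18 it was 0.012. In KO it lay between -0.26, without a3, and -0.0021, without a8. The sign in KO turned with the immediate-early score (0.085) and without a8, a9 and a17 (0.033). Without a1 and a12 the value was 0.32 in WT and -0.015 in KO (adjusted p = 0.384 and 0.983, edgeR). The averaged value was 0.046 with all kidneys and 0.15 without a1 and a12. Calb1 (ENSMUSG00000028222, chromosome 4, 15881264 to 15908064) had 182, 341, 247, 241 and 295 FPM in the WT SFD kidneys a16 to a20, and 315, 263, 364, 312 and 259 FPM in the WT HFD kidneys a11 to a15. In KO kidneys it had 215, 268, 305, 247 and 252 FPM under SFD (a6 to a10), and 263, 358, 363, 305 and 301 FPM under HFD (a1 to a5). Both genotypes overlapped between diets. The averaged log2 fold change of Calb1 was 0.26 (standard error 0.10, adjusted p = 0.0841), and it passed the threshold without a1 and a12 (0.31, adjusted p = 0.0453), without a8, a9 and a17 (0.35, adjusted p = 0.0273), without a17 alone (0.32, adjusted p = 0.0244) and with the immediate-early score (0.34, adjusted p = 0.0194), by the same edgeR test. Without a6, a16 and a18 it was smaller, at 0.16 (adjusted p = 0.246, edgeR), and a16 and a6 held the lowest Calb1 values of the 20 kidneys.

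The distal convoluted tubule was read beside the calcium genes by 3 markers, the cotransporter Slc12a3, the calcium-binding protein Pvalb and the magnesium channel Trpm6. Averaged over genotypes, Slc12a3 and Pvalb were higher under HFD, where 7.70% of all genes were, and Trpm6 was not called. The summed level was 921, 1242, 928, 971 and 954 FPM in WT SFD (a16 to a20), 1855, 924, 1629.6, 1764 and 1118 in WT HFD (a11 to a15), 1046, 1006, 1048, 754 and 1045 in KO SFD (a6 to a10), and 926, 1345, 1705, 1259 and 1134 in KO HFD (a1 to a5). Slc12a3 was the most abundant of the 3 and made up most of each sum, and none was at 0 in any kidney. The sums of a1 and a12 were the lowest of their HFD groups, as their Slc8a1 levels were. This rested on Slc12a3, with 840 FPM in a1 and 838 FPM in a12. Pvalb and Trpm6 together were not the lowest of the group in either kidney, and in a12 they were the highest. The part of these markers in the Slc8a1 result was not tested.

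Endothelial and podocyte markers were also read beside Slc8a1. Summed over 5 endothelial markers, WT kidneys had 127, 280.5, 79.4, 228 and 240.0 FPM under SFD (a16 to a20) and 233, 223, 256, 246 and 238 FPM under HFD (a11 to a15). KO kidneys had endothelial sums of 163, 208, 228, 257 and 228 FPM under SFD (a6 to a10) and 222, 233, 233, 240.0 and 234 FPM under HFD (a1 to a5). Diets overlapped in both genotypes, and a18, a16 and a6 were the lowest of the 20 kidneys. The sums of 5 podocyte markers, in the same order of kidneys, were 180.0, 295, 91.2, 235 and 263 FPM under SFD and 279, 248, 266, 248 and 254 FPM under HFD in WT, and 214, 222, 261, 234 and 254 FPM under SFD and 247, 258, 312, 250.0 and 255 FPM under HFD in KO. The same 3 SFD kidneys were the lowest here, though a6 with 214 FPM lay close to a7 with 222 FPM. These 3 kidneys were also the lowest in Slc8a1, with 76.4 FPM in a18, 62.7 in a16 and 69.3 in a6. Kdr was the most abundant endothelial marker and Podxl the most abundant podocyte marker by mean level in each group, and none of these 10 markers was at 0 in any kidney. Without a6, a16 and a18 the log2 fold change of Slc8a1 was 0.50 in WT (adjusted p = 0.267), 0.34 in KO (adjusted p = 0.382) and 0.42 averaged (adjusted p = 0.0727), by edgeR's quasi-likelihood test. Leaving these kidneys out also removes the lowest Slc8a1 values, and the part of the markers in the Slc8a1 result was not tested beyond these fits.

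Genotype was compared under each diet and through its interaction with diet. Of the 10 genes, 0 were called for KO against WT under SFD, 0 under HFD and 0 in the interaction by edgeR's quasi-likelihood test, and 0 of the 10 had an unadjusted p under 0.05 in any of them. Over all 15943 genes the calls were 0% in each of the 3 comparisons by edgeR and 0 genes by the DESeq2 Wald test, with an unadjusted p under 0.05 in 426, 546 and 285 genes. With all kidneys, the largest differences among the 10 under HFD were those of Trpv5, with a log2 fold change of -0.36 (standard error 0.22), and Slc34a2, with -0.35 (standard error 0.23), both with adjusted p = 0.814 in that edgeR test. Without a13 the value of Slc34a2 was -0.19. Without a3 Trpv5 was still the largest, at -0.52, followed by Slc8a1 with -0.38, which had -0.23 with all kidneys, and Slc34a2 with -0.36. Under SFD, with all kidneys, the log2 fold changes lay between -0.20, for Slc34a3, and 0.055, for Slc8a1, and these turned to 0.018 for Slc34a3 without a9 and -0.061 for Slc8a1 without a16. That of Slc20a1 was 0.048 with all kidneys and moved between -0.33, without a9, and 1.00, without a17. The near-identical kidneys a1 and a12 are a KO and a WT kidney under HFD, so that comparison does not hold 5 fully separate libraries against 5. Without both, 0 of the 10 genes were called for genotype under HFD in edgeR.

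Other genes of phosphate and calcium balance were counted in 5 lists. Over all 15943 genes tested, edgeR called 6.71% in WT, 6.34% in KO and 16.4% averaged over genotypes. An unadjusted p under 0.05 was seen in 3090, 3112 and 4770 genes in these comparisons. Of 7 partners of the phosphate transporters, 0 were called in WT or in KO by edgeR's quasi-likelihood test, where 2 and 3 had an unadjusted p under 0.05 and the DESeq2 Wald test called 0 in each. Averaged over genotypes 2 were called, the scaffold genes Slc9a3r2 (0.25, adjusted p = 0.0217) and Slc9a3r1 (-0.27, adjusted p = 0.0317, edgeR). The call of Slc9a3r1 was lost without any 1 of a3, a4, a6, a8, a13, a14, a15, a16, a17 and a18, with values from -0.26 to -0.22 and adjusted p between 0.0542 and 0.0756 in edgeR. It was lost as well without a filter (-0.25, adjusted p = 0.0612), with the immediate-early score (-0.27, adjusted p = 0.0520), without a8, a9 and a17 (-0.24, adjusted p = 0.131) and without a6, a16 and a18 (-0.17, adjusted p = 0.217, edgeR). Pdzk1, the most abundant of this list, was not called. Among 6 tested hormones and hormone receptors of mineral balance, averaged over genotypes, Stc2 (stanniocalcin 2) rose by 0.76 (adjusted p = 0.00811) and Fgfr4, a receptor that can pair with Klotho, fell by 0.23 (adjusted p = 0.00216, edgeR). Both were also called in WT, Stc2 with 0.92 (adjusted p = 0.0421) and Fgfr4 with -0.28 (adjusted p = 0.0136), and in KO neither was (0.60 and -0.17), with interaction tests of adjusted p = 1.00 in edgeR. In WT the call of Fgfr4 was lost without a14 (-0.23, adjusted p = 0.0558), and that of Stc2 without any 1 of a11, a13, a14, a15, a16, a18 and a20, with values from 0.77 to 0.97 and adjusted p between 0.0519 and 0.123 in edgeR. Both calls in WT were also lost with only the 2 groups in the fit (-0.28, adjusted p = 0.113, for Fgfr4 and 0.92, adjusted p = 0.0956, for Stc2) and without a6, a16 and a18 (-0.20, adjusted p = 0.178, and 0.60, adjusted p = 0.269), and that of Fgfr4 without a filter (-0.27, adjusted p = 0.0777, edgeR). The most abundant gene of this list, Fgfr3, was not called.

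Of 8 vitamin D genes, 2 were called by edgeR and both were higher under HFD in each genotype. Over all genes, 3.03% were called as higher in WT and 3.16% in KO. Averaged over genotypes edgeR called 2 of the 8 as well, against 16.4% of all genes, with 4 at an unadjusted p under 0.05, and the DESeq2 Wald test called 4. Cyp24a1, the vitamin D 24-hydroxylase and a target of Vdr, had 53.9, 114, 184, 39.2 and 75.9 FPM in the WT SFD kidneys a16 to a20, and 636, 455, 420.4, 439.6 and 273 FPM in the WT HFD kidneys a11 to a15. In KO kidneys it had 91.4, 58.5, 133, 91.0 and 55.7 FPM under SFD (a6 to a10), and 455, 519, 100.3, 198 and 374 FPM under HFD (a1 to a5). All WT HFD kidneys were higher than all WT SFD kidneys, and in KO 1 HFD kidney, a3, lay within the SFD range. Of all genes, 6.64% in WT and 7.81% in KO showed no overlap between diets, beside which Cyp24a1 and Gc are to be read. The log2 fold change of Cyp24a1 was 2.25 in WT (standard error 0.45, adjusted p = 0.00451) and 1.94 in KO (standard error 0.45, adjusted p = 0.0117), by edgeR's quasi-likelihood test with Benjamini-Hochberg adjustment. Vdr itself was not called. Gc, the vitamin D binding protein, was at most 30.3 FPM in the SFD kidneys of both genotypes, against 107 to 143 in WT HFD and 106 to 162 in KO HFD, with no overlap in either genotype. Its log2 fold change was 2.39 in WT (standard error 0.12, adjusted p = 3.67e-10) and 2.42 in KO (standard error 0.12, adjusted p = 2.99e-10, edgeR). Cyp27b1, which makes active vitamin D, was not called (averaged 0.96, standard error 0.34, adjusted p = 0.0610, edgeR), nor was Lrp2, the most abundant of the list (averaged -0.20, adjusted p = 0.0504). Without a1 and a12, and without a6, a16 and a18, Cyp24a1 and Gc kept their calls in both genotypes.

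**Figure D5:**
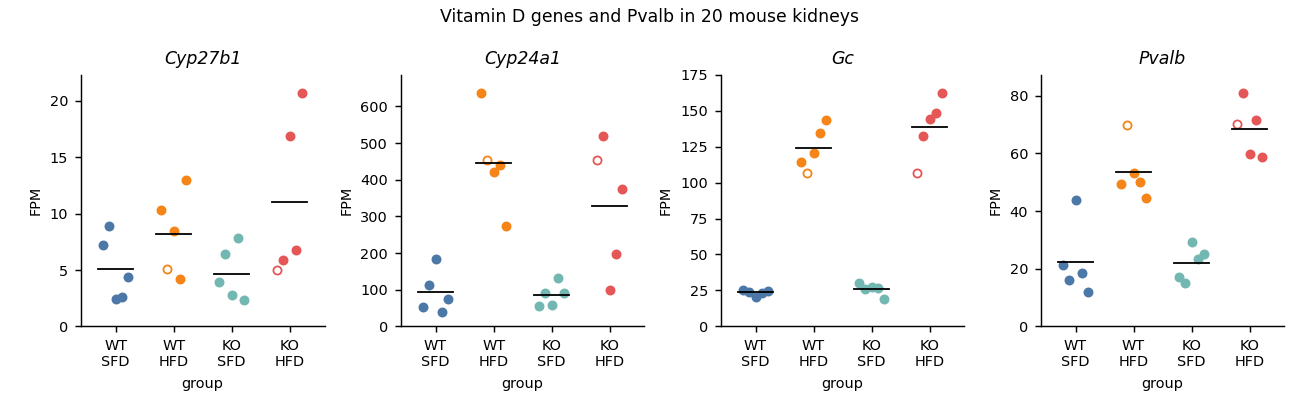
Levels of Cyp27b1, Cyp24a1, Gc and Pvalb in 20 mouse kidneys, in FPM on the vertical axis, by genotype and diet. Each point is 1 kidney, lines are group means (n = 5), and open points mark a1 and a12. Gc and Pvalb do not overlap between diets in either genotype, and Cyp24a1 overlaps in KO alone of the genotypes, through a3 at 100.3 FPM. Of all genes, 6.64% do not overlap in WT and 7.81% in KO.

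Of 5 tested genes of transcellular calcium transport, 1 was called, Pvalb (parvalbumin), with log2 fold changes of 1.27 in WT (standard error 0.26, adjusted p = 0.00580) and 1.63 in KO (standard error 0.27, adjusted p = 0.000736), by edgeR's quasi-likelihood test. Over all genes, 3.03% were called as higher in WT and 3.16% in KO. With only the 2 groups in the fit the call of Pvalb in WT was lost (1.26, adjusted p = 0.0555, edgeR). The calcium pump genes Atp2b1 and Atp2b4, which work beside Slc8a1, and Klk1, the most abundant of the list, were not called. A further list joined claudin genes of paracellular transport with genes of magnesium transport (Trpm6, Trpm7 and Cnnm2), Egf and Umod. Of its 9 tested genes, 0 were called in WT, where edgeR gave 0 genes with an unadjusted p under 0.05 and the DESeq2 Wald test called 0. Over all genes, 3.18% were called as lower in KO and 8.70% averaged over genotypes. Of this list, 2 were lower in KO, Cldn19 (-0.63, adjusted p = 0.0323) and Egf (-0.59, adjusted p = 0.0168), as they were averaged over genotypes (-0.46, adjusted p = 0.0131, and -0.45, adjusted p = 0.00481, edgeR). The interaction of both had an adjusted p = 1.00, and the call of Cldn19 in KO was lost without a1 and a12 (-0.64, adjusted p = 0.0598, edgeR). It was also lost without a1, a3, a5, a6 or a9 alone (-0.64, -0.50, -0.57, -0.57 and -0.52, adjusted p between 0.0573 and 0.105), and that of Egf without a1 (-0.54, adjusted p = 0.0516) or a6 (-0.51, adjusted p = 0.0579, edgeR). The call of Cldn19 in KO was lost too without a filter (-0.62, adjusted p = 0.0602), with the immediate-early score (-0.64, adjusted p = 0.0529), with only the 2 groups (-0.62, adjusted p = 0.117) and without a6, a16 and a18 (-0.56, adjusted p = 0.0932, edgeR), where its averaged call was lost as well (-0.35, adjusted p = 0.100, edgeR). Without a8, a9 and a17 both calls in KO were lost (-0.60, adjusted p = 0.0989, and -0.62, adjusted p = 0.0557, edgeR). Umod, the most abundant gene of that list, was not called. Markers of the thick ascending limb, Umod among them, summed to 3510 ± 583 FPM in KO SFD and 2613 ± 357 FPM in KO HFD (SD, n = 5 each). In WT the sums were 3113 ± 425 FPM under SFD and 2814 ± 415 FPM under HFD. Of 3 tested markers, edgeR called 1 as lower in KO and 0 in WT. The part of these markers in the Cldn19 and Egf results was not tested. The genes Pth1r, Phex, S100g, Calb2 and Cldn2 had 0 counts in all 20 kidneys, and Fgf23, Slc8a2, Slc8a3 and Cldn14 did not pass the expression filter, so these 9 genes were not tested. A count of 0 in every kidney is a property of the table used here and is not read as absence of a transcript.

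Further marker lists were read once for the whole kidney. Averaged over genotypes, 4 of 5 immune cell markers were higher under HFD, 5 of 7 male-biased renal genes were lower and 3 of 4 female-biased renal genes were higher, and their part in the results for the 10 genes was not tested. Over all genes tested, 7.70% were called as higher in that comparison and 8.70% as lower. The immune cell sums were 53.9, 98.6, 46.1, 66.3 and 77.5 FPM in WT SFD (a16 to a20), 100.1, 117, 141, 107 and 86.5 in WT HFD (a11 to a15), 82.4, 59.8, 92.0, 85.6 and 93.8 in KO SFD (a6 to a10), and 117, 146, 104, 142 and 85.0 in KO HFD (a1 to a5), with Lyz2 the most abundant. Both genotypes overlapped in these sums. For the male-biased genes, of which Kap was the most abundant, sums in the same order were 37047, 32016, 51043, 27125 and 29374 FPM under SFD and 21758, 25206, 21349, 17075 and 23491 under HFD in WT kidneys, and in KO kidneys 31777, 35126, 31043, 37456 and 34211 under SFD and 25222, 27656, 20356, 21619 and 24787 under HFD. Within each genotype all HFD kidneys were lower than all SFD kidneys in these sums. Sums of the female-biased genes, led by Cyp4a14, were 55.6, 28.2, 43.7, 37.7 and 33.5 FPM under SFD and 141, 123, 190.3, 268 and 199.9 under HFD in WT kidneys, and in KO kidneys 84.6, 34.5, 45.1, 17.3 and 34.8 under SFD and 123, 148, 71.0, 179 and 88.5 under HFD. They overlapped in KO and not in WT. Some genes stand in more than 1 list, Pvalb and Trpm6 with the calcium and magnesium genes, Umod in the thick ascending limb, and Slc7a13 among late proximal and male-biased genes. Averaged over genotypes, 1 of 3 tested markers of the thick ascending limb (Slc12a1, lower, with Kcnj1 at 0 in all 20 kidneys), 1 of 5 of connecting tubule and principal cells (Fxyd4, lower) and 1 of 4 adipocyte markers (Lep, higher) were called. In that comparison 0 of 5 intercalated cell, 0 of 5 podocyte, 0 of 5 endothelial and 0 of 1 tested adrenal genes were called by edgeR's quasi-likelihood test, with 0 at an unadjusted p under 0.05 and 0 by the DESeq2 Wald test in each list. Of 11 clock genes 0 were called by edgeR, with 3 at an unadjusted p under 0.05 and 2 by the DESeq2 Wald test.

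In the aortas, scaled on their own, 3 of the 10 genes were clearly present, Slc20a2 with 105 ± 11.7 FPM (SD, n = 20 aortas), Slc8a1 with 93.9 ± 28.4 FPM and Slc20a1 with 31.5 ± 7.68 FPM. The means of Kl and Vdr were 0.605 and 0.511 FPM, those of Slc34a1 and Calb1 were 0.0103 and 0.00293 FPM, and Slc34a2, Slc34a3 and Trpv5 had 0 counts in all 20 aortas. The aortas R-1 of WT SFD and R-12 of KO SFD were near-identical too, with a median chi-square of 0.0258. They were also the deepest aorta libraries, with 36419598 and 36452741 counts, and the next deepest, R-11 of KO SFD, had 23683293.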

How the data were processed

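The authors deposited counts per gene for 20 kidneys and 20 aortas, from oligo(dT)-enriched mRNA. The submitters' processing notes name HISAT2 2.1.0 and featureCounts and the methods name TopHat2. The counts were analysed with edgeR 4.0.16 in R 4.3.3 (limma 3.58.1), with TMM scaling, filterByExpr by group and 1 quasi-likelihood fit of the 20 kidneys without covariates. The biological coefficient of variation was 22.3%. P-values were two-sided. Those of genes were adjusted by Benjamini-Hochberg over all genes tested, and those of the Slc34a3 to Slc34a1 ratio over its WT and KO tests alone. FPKM used exon lengths of GENCODE M21. Log2 FPM for likeness had 2 FPM added, and pairs of libraries were compared over genes with at least 50 counts in both together. The fits were also run on simulated counts, of which no result is given or used here. Alternatives were DESeq2 1.42.0 (Wald test, size factors), no filter, clock or immediate-early scores as covariates, fits of 2 groups, and fits without libraries. Named were all 10 genes, Egfr, genes of 5 pathway lists that were called or most abundant, and the 3 genes most like each called gene. Cyp27b1, Atp2b1, Atp2b4, genes that were not tested and single markers were named after their values were seen. Members and lists, including markers of cell types, sex bias, clock and immediate-early genes, were chosen with earlier results of these data known. Promoter sequences are from RefSeq (GRCm38.p6), tables were made with pandas 2.3.3 and plots with matplotlib 3.10.9.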

Additional observations from a re-analysis of the deposited data

Results flagged for a closer look

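In 9 of 48 groups of 5 libraries, 1 library lay far from the other 4 by Dixon's criterion, which chance alone meets in about 1 in 20 groups. Slc34a3 was low in the KO SFD kidney a9, at 15.9 FPM beside 48.1 to 59.7 FPM in its group, and the log2 ratio of Slc34a3 to Slc34a1 counts there was -8.14 beside -6.89 to -6.65. Slc20a1 was high in the WT SFD kidney a17, at 228 FPM beside 34.1 to 47.9 FPM, and low in the KO HFD kidney a4, at 26.3 FPM beside 39.1 to 43.1 FPM. In the KO HFD kidney a3, Kl was high at 624 FPM beside 429 to 476 FPM, and Egfr was high at 60.5 FPM beside 34.6 to 40.4 FPM. Slc34a2 was low in the KO HFD kidney a5, at 2.04 FPM beside 3.37 to 3.67 FPM. Vdr was high in the WT HFD kidney a13, at 327 FPM beside 287 to 298 FPM. Slc8a1 was low in the KO SFD kidney a6, at 69.3 FPM beside 99.2 to 111 FPM.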

How the results depend on the processing

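Of the log2 fold changes refitted under alternatives other than leaving out single kidneys, 696 kept direction and call, 27 lost a call, 11 gained one and 20 changed sign. The cause was not tested for any of these. Genes called under HFD in WT numbered 607 with only the 2 groups compared in the fit and 646 without a6, a16 and a18. Of the 10 genes, 1 was called in WT under the DESeq2 Wald test, with the clock score, with the immediate-early score and without a1 and a12, and 2 without a8, a9 and a17. Over all genes, 1091 were called in WT without a1 and a12, and 1075 without a8, a9 and a17. The set of a6, a16 and a18 and that of a8, a9 and a17 were chosen after seeing the data. In KO, 0 of the 10 were called by edgeR without a filter, with the immediate-early score, without a1 and a12, without a6, a16 and a18, and with only the 2 groups. Over all genes, 880 were called in KO without a1 and a12, 935 without a6, a16 and a18, and 582 without a8, a9 and a17. Averaged over genotypes, 1 of the 10 passed the study's thresholds. Under HFD in KO, Slc34a2 changed sign with the immediate-early score (0.095) and without a8, a9 and a17 (0.057), as did Trpv5 (0.085 and 0.033), and without those 3 kidneys Slc20a1 (0.026) and Slc20a2 (0.0027). Without a6, a16 and a18, Slc34a2 was -0.063 in WT and -0.086 averaged, Trpv5 was -0.045 averaged, Vdr was -0.14 in the interaction, and for KO under SFD the values were 0.039 for Slc34a1, -0.13 for Slc20a1, 0.0095 for Vdr and -0.058 for Slc8a1. For KO under SFD, Slc20a1 was -0.32 with the immediate-early score and -0.12 without a8, a9 and a17, Calb1 was 0.023 without them and Slc8a1 was -0.019 with that score. The interaction was -0.0071 for Slc20a1 with the clock score and -0.0043 for Vdr without a1 and a12. Leaving out single kidneys, genes called ranged from 722 to 1119 in WT, 757 to 936 in KO and 2275 to 2664 averaged, and of the 10 genes from 0 to 1, 0 to 1 and 2 to 4. The Slc34a3 to Slc34a1 ratio differed by 0.67 to 0.87 in WT and 0.74 to 1.11 in KO. Log2 fold changes that changed sign ranged, under HFD in KO, from -0.077 to 0.022 for Slc34a1 and -0.13 to 0.12 for Slc34a2, and averaged from -0.0067 to 0.15 for Slc34a2 and -0.032 to 0.14 for Trpv5. For KO under SFD they ranged from -0.084 to 0.015 for Slc34a1, -0.32 to 0.018 for Slc34a3, -0.33 to 1.00 for Slc20a1, -0.063 to 0.011 for Slc20a2, -0.17 to 0.11 for Trpv5, -0.13 to 0.094 for Calb1 and -0.061 to 0.19 for Slc8a1. For KO under HFD they ranged from -0.0057 to 0.18 for Slc20a1, -0.052 to 0.022 for Slc20a2 and -0.14 to 0.0095 for Kl, and in the interaction from -0.92 to 0.40 for Slc20a1, -0.029 to 0.048 for Slc20a2, -0.12 to 0.12 for Vdr and -0.014 to 0.20 for Calb1. No paired analysis was possible because the groups compared share no replicate numbers. Counts per library limit genes such as Slc34a2, which had 1888 counts over the 20 kidneys.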
